A study of Mus musculus with 4 samples.

Results

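The cells described here are the blood vessel cells recovered from mouse tail intervertebral discs: endothelial cells, which line vessels, and mural cells, the pericytes and smooth muscle cells that wrap them. A cell barcode with at least 250 detected genes was taken as endothelial if it held a UMI (1 counted RNA molecule) of at least 3 of 9 genes (Pecam1, Cdh5, Egfl7, Emcn, Esam, Kdr, Flt1, Plvap and Cldn5). It was taken as mural if it held a UMI of at least 3 of 9 others (Rgs5, Notch3, Myh11, Higd1b, Kcnj8, Abcc9, Ndufa4l2, Gm13889 and Rgs4). The rule took 119 of 3846 cells, 62 endothelial and 58 mural, with 1 cell meeting both sets. The cells were thus chosen by detection of these 18 genes, so the levels of those genes are given as a description and none was tested.

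The study asked how disc cells change after a needle injury, by droplet single-cell RNA sequencing of discs from female wildtype C57BL/6 mice, 12 weeks old. Injured discs had been punctured from both sides with a 30G needle and were taken 7 days later. Control discs came from the same animals at more distal tail levels that were not punctured, so injury and tail level cannot be told apart. Each of 2 rounds gave 1 control and 1 injured library. Discs of 6 mice were pooled to 30 a group, frozen as a suspension, thawed and sorted for viable cells before capture. The labels do not say whether each round had its own mice or both were drawn from 1 pool, so with 2 libraries a group the p-values measure only the spread between these libraries, which may be technical. Within every pair of control or injured values below, round 1 comes first.

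The disc is among the least vascular tissues of the body: vessels normally reach only its outer annulus and the adjoining endplates, and the inner disc is fed by diffusion. In other tissues endothelial cells take on arterial, capillary and venous states, and post-capillary venules are where P-selectin and E-selectin catch passing leukocytes. Endothelial PDGF-B recruits mural cells through their PDGF receptor beta, and both cell types lay down the basement membrane between them.

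The libraries differed in depth. Cells with at least 250 genes numbered 378 and 856 in the control libraries and 778 and 1834 in the injured libraries, with medians of 1061.5 and 836 UMIs a cell in controls and 7033.5 and 4635 in injured discs. The first control matrix lists only 444 barcodes, and 159 of its 378 cells carry a barcode that recurs in the injured library of that round with at least 1 UMI there for every 3 in the control, among them no endothelial cell and 1 of its 2 mural cells. Endothelial medians were 3605.5 and 749.5 UMIs a cell in controls and 3690 and 2281 in injured discs. Levels below are in CPM: the UMIs of a gene, summed over the cells of one kind in one library, scaled to a total of 1000000 UMIs. In the endothelial sums (28793 and 10384 UMIs in controls, 170006 and 41966 in injured discs, from 61 cells without the 1 that met both sets) a single UMI is worth 34.7 and 96.3 CPM in controls and 5.88 and 23.8 CPM in injured discs.

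The endothelial cells carried their label well on genes the rule did not use. The 16 further endothelial genes of a list (among them Tie1, Tek, Eng, Erg, Sox17, Cd93 and Robo4) summed to 6390.4 and 11556 CPM in controls and 7059 and 9865 CPM in injured discs, against 734 to 1019 CPM in the cells of neither kind. Disc and cartilage genes (Acan, Col2a1 and 6 others) were at 0 in both control sums and at 82.3 and 119 CPM in the injured ones, against 8734 to 15032 CPM in the rest, and the macrophage list was at 0 in all 4 endothelial sums. Of the 15 genes outside the rule with the highest ratio to the rest, Adgrl4, an endothelial adhesion G protein-coupled receptor, was seen in 38 of the 61 cells and in none of the 3727 cells of neither kind. Ptprb, the vascular phosphatase VE-PTP, was seen in 43 of the 61, Ctla2a in 44, Myct1 in 42 and Adgrf5 in 44. Of the rule genes, whose levels follow from how the cells were chosen, Pecam1, an adhesion protein of endothelial junctions, was at 1181 and 1059 CPM in the control libraries and 906 and 1382 CPM in the injured libraries, and Cdh5, the cadherin of those junctions, at 695 and 674 CPM in controls and 653 and 691 CPM in injured discs.

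Few cells lay near the endothelial threshold: 16 had 2 endothelial markers and 4 had 3. The further endothelial genes were at 2157.5 CPM in the former, where 6 of the 16 cells held at least 3 of them, at 6276.5 CPM in the latter and at 3782.8 CPM in the 8 cells with 4 markers. The disc genes were at 3252.7 CPM with 2 markers and at 0 with 3 or 4. Many more cells lay near the mural threshold, 372 with 2 markers and 26 with 3. Disc genes were high on both sides there (18948 and 23413 CPM). They were at 11336 CPM in the 6 cells with 4 markers, but all of this came from 1 cell of 19974 UMIs without Rgs5. The 5 others, which had Rgs5, held no UMI of the disc genes. In the 9 cells with 5 markers the disc genes were at 83.3 CPM. Of the 372 cells, 251 had Ndufa4l2 with Gm13889 and 80 had Ndufa4l2 with Rgs4.

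The mural set held many cells that carried disc genes rather than mural genes. Of its 58 cells 34 carried a UMI of Rgs5, a regulator of G protein signalling that is among the most abundant pericyte transcripts, and 24 did not. All 24 came from injured discs, 9 from round 1 and 15 from round 2, and every one had both Ndufa4l2 and Gm13889, with Rgs4 as the third gene in 19. Ndufa4l2, a mitochondrial protein induced in low oxygen, was at 925 to 1144 CPM in the cells of neither kind and was therefore common in disc tissue. All 24 held Acan and 21 held Col2a1, the proteoglycan and collagen of cartilage. Their disc genes came to a median of 168 UMIs per 10000 (56.0 to 969), against a median of 0 in the 33 cells with Rgs5 that entered the sums, where 6 cells were above 0 and the highest was at 146.

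Mural genes outside the rule split the same way. The 12 of them (Pdgfrb, Acta2, Tagln, Des, Myl9, Mcam and 6 others) had a median of 47.3 UMIs per 10000 in cells with Rgs5 and 4.02 without it. Acta2, the smooth muscle actin, was seen in 25 of 33 cells with Rgs5 and in 1 of 24 without. Fibroblast genes summed to 53194 and 27013 CPM in the injured cells lacking Rgs5 and to 11423 and 10669 CPM in those with it. The cells lacking Rgs5 were also deeper, with a median of 10570 UMIs against 3224, and 3 of the 9 in round 1 share a barcode with a deep barcode of the control library. Since these data go against the label for the 24 cells, they are called mural-set cells without Rgs5, and the mural gene levels below are on the cells with Rgs5, while shares are given with and without the others. The split was chosen after the values had been seen and was not tested.

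**Figure D1:**
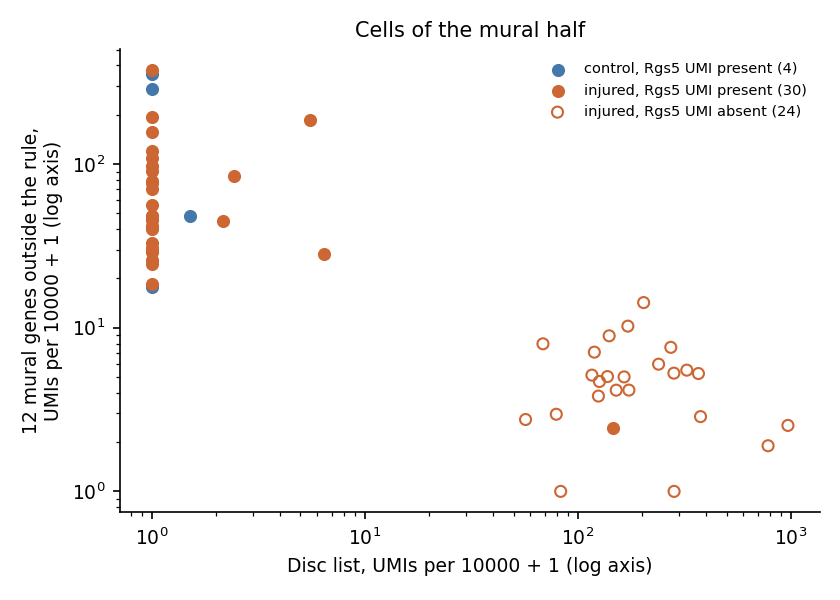
Each point is 1 of the 58 cells of the mural set, with the UMIs of 8 disc and cartilage genes per 10000 on the horizontal axis and of 12 mural genes outside the rule per 10000 on the vertical axis, 1 added to each and both axes logarithmic. Filled points carry Rgs5 (4 control and 30 injured cells) and open points do not (24 injured cells): the open points lie at the right, with disc genes from 56.0 to 969 per 10000, and the filled points mostly at the left edge and higher.

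Endothelial cells made up 2.12% of the cells of the first control library (8 of 378, exact 95% interval 0.918 to 4.13) and 4.24% of the first injured library (33 of 778, 2.94 to 5.91). In round 2 the shares were 0.701% (6 of 856, 0.258 to 1.52) and 0.818% (15 of 1834, 0.458 to 1.35). The rounds thus differed more than the groups, and the libraries of the 2 groups overlapped. Injured libraries were higher by 1.12 percentage points on average, 2.13 in round 1 and 0.117 in round 2 (exact permutation test, two-sided, p = 0.667, where 0.333 is the smallest p that 2 against 2 can give). Leaving out the first injured library turned the difference to -0.591 points. Thinned to 1000 UMIs, with shallower cells left out, it was 0.592 points, and 0.891 points in the same cells unthinned. Without the 159 control cells whose barcodes recur in the injured library, the first control share was 3.65% and the mean difference 0.353 points. All intervals cover counting error only.

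Mural-set shares were higher in injured discs in both rounds, 3.08% (24 of 778, 1.99 to 4.56) against 0.529% (2 of 378, 0.0641 to 1.90) in round 1 and 1.64% (30 of 1834, 1.11 to 2.33) against 0.234% (2 of 856, 0.0283 to 0.841) in round 2. The libraries of the 2 groups did not overlap, and the mean difference of 1.98 points reached p = 0.333 in the exact permutation test, two-sided, the smallest the design allows. Counting only cells with Rgs5, the injured shares were 1.93% (15 of 778) and 0.818% (15 of 1834) and the mean difference was 0.992 points. Depth moved with this result: in cells of at least 1000 UMIs thinned to 1000, the mural-set difference was 0.822 points, with 1 and 0 control cells against 9 and 12 injured cells (0 of 397 allows a share of up to 0.756%), while in the same cells unthinned it was 2.27 points. With Rgs5 required as well, the thinned difference was 0.744 points, 0.734 in round 1 and 0.754 in round 2. The part of tail level in either share was not tested.

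**Figure D2:**
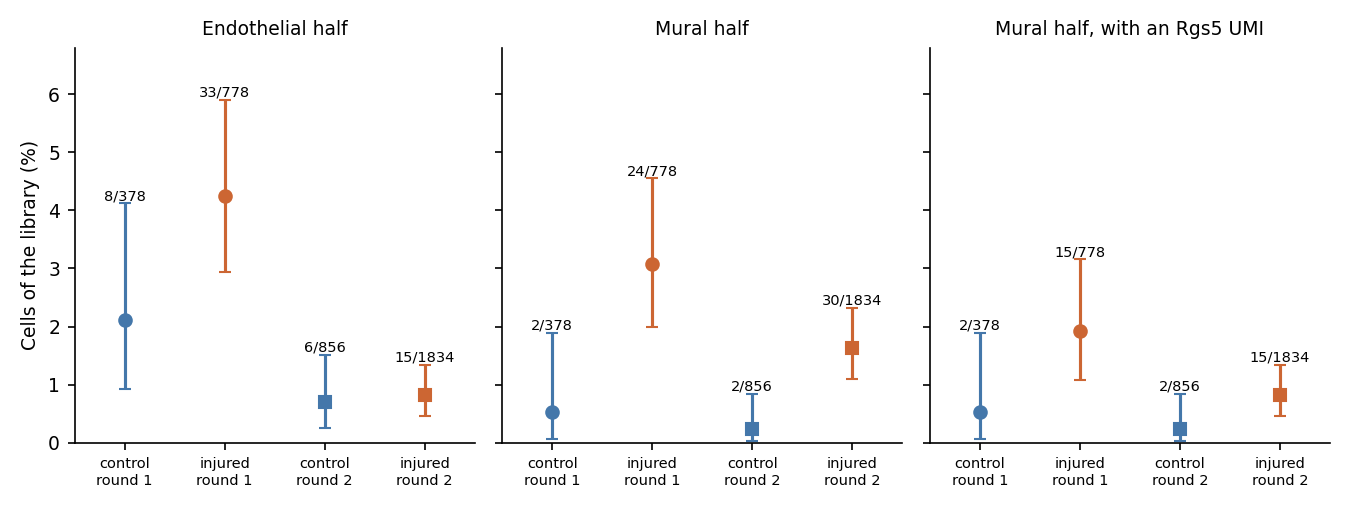
Percent of cells with at least 250 genes that met the endothelial rule, the mural rule, or the mural rule with an Rgs5 UMI, per library with exact 95% binomial intervals and the cell counts written beside each point (blue control, orange injured, circles round 1, squares round 2). Endothelial shares differ mainly by round (2.12% and 4.24% against 0.701% and 0.818%), and the injured mural shares of 3.08% and 1.64% lie above both control shares.

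Among endothelial states, venous, capillary and arterial genes were seen and lymphatic genes hardly at all. Of 7 lymphatic genes 6 (Prox1, Lyve1, Mmrn1, Ccl21a, Reln and Pdpn) had no UMI in the 61 cells, and Flt4, the receptor of the lymphatic growth factor VEGF-C, had 1 and 0 UMIs in controls and 0 and 2 in injured discs. Of 12 arterial genes 9 had at least 3 endothelial UMIs, among them Efnb2, the ephrin of arterial endothelium, at 139 and 0 CPM in controls and 147 and 71.5 CPM in injured discs, while 3, Gja5 and Bmx among them, had none. Plvap, which forms the diaphragms of fenestrated and venous endothelium, was in 47 of 61 cells and Cldn5, a tight junction claudin, in 14. Fabp4, the fatty acid binding protein of capillary and venous endothelium and one of the markers given for these cells, was in 33 cells, at 1389 and 5682 CPM in the control libraries and 2212 and 3264 CPM in the injured libraries.

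Venular genes were seen together in the same cells. Selp (P-selectin, stored in endothelial granules) was seen in 19 cells, Sele (E-selectin, made on activation) in 16 and Ackr1 (a chemokine-binding receptor of venules) in 15. All 16 cells with Sele and all 15 with Ackr1 also had Selp, and 13 had Sele with Ackr1. Gpihbp1, which holds lipoprotein lipase on capillaries, was in 18 cells, of which 1 had Ackr1. Esm1, a secreted proteoglycan of sprouting tip cells, was in 4 injured cells, 2 in each round and none with Selp. These are counts of detection in cells of unequal depth: the median was 6796 UMIs in cells with Ackr1 and 2728 in cells without.

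Selp (chr1:164115264-164150026) and Sele (chr1:164048234-164057677), both protein-coding on the plus strand (GRCm38, GENCODE annotation), lie near each other. Selp is 1 of the 2 genes called higher below and all 16 endothelial cells with Sele also held it, so the 250 bases before each start site are shown, 5′ to 3′ from the RefSeq table (GRCm38.p6, plus strand). Capitals mark AGGAAG or its reverse complement CTTCCT, a core that ETS factors such as Erg and Fli1 can bind, searched on both strands.
Selp, chr1:164115014-164115263: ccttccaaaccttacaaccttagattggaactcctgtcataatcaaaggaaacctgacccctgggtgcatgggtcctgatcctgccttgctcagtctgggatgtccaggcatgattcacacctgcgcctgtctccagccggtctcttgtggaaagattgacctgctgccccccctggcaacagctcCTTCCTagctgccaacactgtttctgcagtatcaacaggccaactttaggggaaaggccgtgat
Sele, chr1:164047984-164048233: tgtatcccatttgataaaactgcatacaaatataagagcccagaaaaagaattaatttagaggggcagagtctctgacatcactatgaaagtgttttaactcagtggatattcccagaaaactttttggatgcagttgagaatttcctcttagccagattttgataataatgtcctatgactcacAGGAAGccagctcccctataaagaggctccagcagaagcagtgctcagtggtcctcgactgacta
The match begins 64 bases before the start of Selp and 65 before that of Sele, and each window holds 1. The motif was in 29.5% of 32851 promoter windows of that length. It was in 3 of the 5 endothelial rule genes that have an entry (Egfl7, Emcn and Flt1) and in 6 of 8 further endothelial genes (Tie1, Eng, Erg, Robo4, Cd34 and Ly6c1). Among genes with an entry it was in 1 of 5 mural rule genes (Rgs4) and 0 of 9 further mural genes. A match describes the letters only and is no evidence of a bound site.

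Injured endothelial cells showed more Selp, Sele, Ackr1 and Col4a1 RNA and less RNA of Cd36, Tcf15 and early response genes, but none of this passed the test that treats the 4 libraries as independent. Of 553 genes tested none was called (0.0%) at an adjusted p under 0.05 (edgeR quasi-likelihood test, Benjamini-Hochberg adjustment, lowest adjusted p 0.449), with 35 genes under an unadjusted p of 0.05. DESeq2 called none too, with 18 under that level. Control and injured discs came from the same animals, and with round as a term in the fit 24 genes were called (4.34%), 2 higher (0.362%) and 22 lower (3.98%) in injured discs. The unblocked test was the primary one and the blocked fit a listed alternative to it, so every rise or fall below is a call of that alternative, which leaves 1 residual degree of freedom, and not of the primary test. The low-count filter keeps a gene that is high in 1 group only, so the list counts below are descriptions of the genes that passed.

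Selp, the leukocyte-capturing P-selectin, rose. It was at 69.5 and 193 CPM in the control libraries and 1353 and 524 CPM in the injured libraries, from 2 and 2 UMIs in controls and 230 and 22 in injured discs, and at 0 to 0.969 CPM in the rest. Both injured libraries lay above both control libraries, and the UMIs came from 1 cell in each control library and from 13 and 4 cells in the injured ones, with up to 49 in 1 cell. Pooled over libraries the ratio was 11.6 (counting interval 4.49 to 43.1). It was 6.17 without the first control library and 5.13 without the first injured one. The log2 difference was 3.22 ± 0.74 with round as a term (SE, adjusted p = 0.0017 in edgeR) and 3.10 ± 0.84 without it (adjusted p = 0.597). Among cells thinned to 1000 UMIs, 0 of 7 and 1 of 2 control cells and 8 of 32 and 3 of 13 injured cells held Selp.

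Ackr1, Sele and Lrg1 differed in the same direction without being called. Ackr1 was at 34.7 and 0 CPM in the control libraries and 288 and 334 CPM in the injured libraries, a blocked log2 difference of 3.48 ± 1.41 that was not called (edgeR adjusted p = 0.185), and 14 of the injured cells against 1 control cell held it. Its pooled ratio of 11.6 (counting interval 2.02 to 467) rests on 1 control UMI. Without the first control library the ratio was only a lower bound of 1.03, against a floor of 3 UMIs. Sele had no UMI in 14 control cells and 40 and 24 UMIs in 12 and 4 injured cells. Against a floor of 3 UMIs over both control libraries, Sele was at least 3.94-fold higher, a bound of 1.05 without the first control library and 7.47 without the first injured one, and it had too few counts to be tested. Lrg1, a secreted glycoprotein of activated venules, was at 0 and 96.3 CPM in controls and 212 and 357 CPM in injured discs.

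Of the other adhesion genes none was called. Icam1, the ligand of leukocyte integrins, was at 556 and 96.3 CPM in controls and 559 and 643 CPM in injured discs. Both injured values lay above both controls, with 559 against 556 CPM in round 1. Icam2 was at 0 and 193 CPM in controls and 76.5 and 47.7 CPM in injured discs, and Vcam1 had 3 endothelial UMIs in all, in the first injured library. Of the 6 leukocyte adhesion genes tested, which include Selp and Ackr1, 4 were higher in injured discs without overlap (Selp, Ackr1, Icam1 and Cd34), against 15.6% of the 553 tested genes, and Podxl and Cxcl12 overlapped. Their median log2 difference was 0.97 beside -0.02 over all genes.

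Some capillary genes were lower in injured discs, and 1 of them, Cd36, fell. Cd36, a fatty acid transporter of capillaries, was at 521 and 482 CPM in the control libraries and 47.1 and 119 CPM in the injured libraries, from 15 and 5 UMIs in controls and 8 and 5 in injured discs, with both control libraries above both injured ones. It fell by 2.87 ± 0.89 on the log2 scale (SE, edgeR with round as a term, adjusted p = 0.0389). The pooled ratio of injured to control was 0.120 (counting interval 0.0549 to 0.254), and 0.233 without the first injured library. Barcodes under 100 UMIs, which hold free RNA, had Cd36 at 53.4 and 34.1 CPM in the injured libraries, near the endothelial level in the first. Tcf15, a transcription factor of capillary endothelium that partners with Meox2, was at 417 and 385 CPM in controls and 41.2 and 71.5 CPM in injured discs and was not called (adjusted p = 0.0837 in the blocked edgeR fit). Rgcc was at 625 and 193 CPM in controls and 64.7 and 47.7 CPM in injured discs and Meox2 at 104 and 193 CPM in controls and 64.7 and 23.8 CPM in injured discs, both lower in each round. Timp4 had 6 UMIs, all in the first control library. Gpihbp1, at 208 and 482 CPM in controls and 70.6 and 191 CPM in injured discs, was also lower without overlap but had too few counts to be tested. All 4 tested genes of the 13 on the list were below 0 (median -1.55, range -2.93 to -0.06), 2 of them without overlap beside 18.8% of tested genes. The other 2, Fabp4 and Aqp1, a water channel, overlapped between groups. Of the genes not tested, Fabp5, Lpl and Cd300lg overlapped too. Fabp5 had 3 control and 23 injured UMIs (pooled ratio 1.42, counting interval 0.428 to 7.37) and Lpl 0 and 6. After thinning to 1000 UMIs, Cd36 was in 3 of 7 and 0 of 2 control cells and in 3 of 32 and 4 of 13 injured cells.

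**Figure D3:**
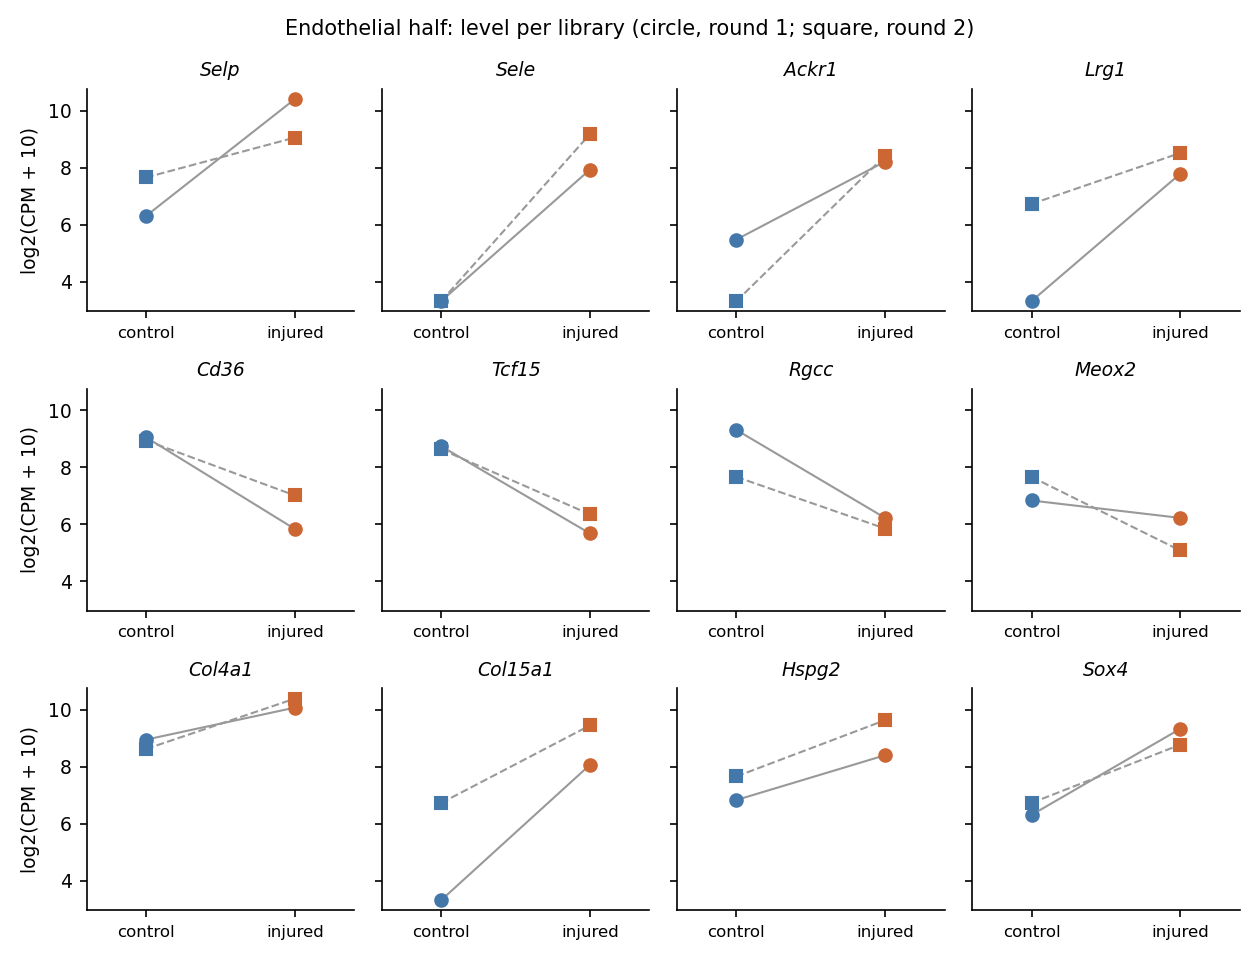
Levels of 12 genes in the endothelial sums, as log2 of CPM plus 10, in control and injured discs, with a line joining the libraries of each round (solid round 1, dashed round 2). The Selp, Sele, Ackr1 and Lrg1 lines go up from control to injured in both rounds, the Cd36, Tcf15, Rgcc and Meox2 lines descend, and those of Col4a1, Col15a1, Hspg2 and Sox4 go up.

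Several basement membrane genes were higher in the injured libraries without any passing the test. Col4a1, the chain that with Col4a2 forms the type IV collagen network, was at 486 and 385 CPM in the control libraries and 1071 and 1334 CPM in the injured libraries (blocked log2 difference 1.39 ± 0.53, edgeR adjusted p = 0.138). Col4a2 was at 278 and 289 CPM in controls and 606 and 548 CPM in injured discs. Hspg2, the heparan sulfate proteoglycan perlecan, was at 104 and 193 CPM in controls and 329 and 786 CPM in injured discs, and Col15a1, a collagen between basement membrane and interstitium, at 0 and 96.3 CPM in controls and 259 and 691 CPM in injured discs. Each of these 4 was higher in both rounds. Nid1 and Nid2, the nidogens that link laminin to collagen IV, were at 34.7 and 0 CPM in controls and 171 and 167 CPM in injured discs and at 0 CPM in both controls and 82.3 and 143 CPM in injured discs. All 4 tested members were above 0 with a median log2 difference of 1.24, and 3 were higher without overlap, where 15.6% of the tested genes were.

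Sprouting genes shared members with that list. Of its 17 genes 4 were tested, 3 of them above 0 (median 1.12, beside -0.02 over all genes), and Col4a1 and Col4a2 are among those 3. Adm, the vasodilator peptide adrenomedullin, went the other way on few counts, with 5 and 0 UMIs in controls and 2 and 0 in injured discs. Esm1 had 23 and 11 UMIs in injured discs and none in controls, which is at least 2.09-fold higher, a bound of 0.555 without the first control library and 3.42 without the first injured one. Cxcr4, the CXCL12 receptor of tip cells, was at 417 and 0 CPM in controls and 324 and 95.3 CPM in injured discs. Angpt2, the TIE2 ligand released by activated endothelium, had at most 47.7 CPM in any library. Cxcr4 overlapped between groups, and Angpt2 rested on 1 control and 10 injured UMIs. Sox4, a transcription factor of the SOXC group, rose, at 69.5 and 96.3 CPM in controls and 635 and 429 CPM in injured discs (log2 difference 2.85 ± 0.89, edgeR with round as a term, adjusted p = 0.0405). Its 3 control UMIs against 126 injured ones give a pooled ratio of 7.76 (counting interval 2.60 to 38.1). Stc1, a secreted glycoprotein seen in 27 of 61 cells, was at 104 and 0 CPM in controls and 529 and 286 CPM in injured discs and was not called (blocked edgeR fit, adjusted p = 0.137).

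Early response genes are switched on within minutes of a stimulus. The list of them also holds the heat shock genes Hspa1a, Hspa1b, Hsp90aa1 and Dnajb1. Members of this list made up 8 of the 22 genes that fell. Jun, a subunit of the AP-1 factor, was at 3126 and 2696 CPM in the control libraries and 588 and 667 CPM in the injured libraries, with both controls above both injured libraries, and fell by 2.23 ± 0.42 on the log2 scale (SE, edgeR with round as a term, adjusted p = 6.19e-05). Fos, its AP-1 partner, was at 2431 and 1252 CPM in controls and 424 and 572 CPM in injured discs, and Junb at 4098 and 1637 CPM in controls and 671 and 1001 CPM in injured discs. Of the 25 genes on the list 19 were tested and all were below 0 (median -1.51). Of these 12 were lower without overlap, where 18.8% of the tested genes were, and 8 fell in the blocked fit, where 3.98% did. They were Fos, Fosb, Jun, Junb, Egr1, Zfp36, Dusp1 and Hspa1a. Hspa1a, the inducible HSP70 chaperone, differed between rounds, at 7502 and 482 CPM in controls and 1165 and 453 CPM in injured discs. Its pooled ratio of injured to control was 0.181, and 2.13 without the first control library, so its fall rests on that library. Without it the ratio of Junb was 0.450 in place of 0.214, that of Fos 0.362 in place of 0.214 and that of Egr1 0.539 in place of 0.242, and without the first injured library that of Fosb was 0.604, over 1.5 times its value with all 4.

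The cells of neither kind differed in the same direction. Of those 19 genes 16 were lower in injured discs in both rounds in the rest and 1 was higher, and for none of the 19 was the change called different between endothelial cells and the rest (interaction term of the edgeR fit, lowest adjusted p 0.948). Jun in the rest was at 304 and 830.1 CPM in controls and 149 and 324 CPM in injured discs. As background, such genes are also induced when tissue is dissociated, and the part of that was not tested.

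Of the 22 genes that fell 14 lie outside that list, the heat shock gene Hspb1 among them. Id1, an inhibitor of basic helix-loop-helix factors and a BMP target, was at 1528 and 1829.7 CPM in the control libraries and 118 and 429 CPM in the injured libraries (edgeR with round as a term, adjusted p = 2.00e-05). Smad7, the inhibitory SMAD, was at 972 and 770.4 CPM in controls and 82.3 and 143 CPM in injured discs, a fall by 3.13 ± 0.66 on the log2 scale. Id3 was at 2119 and 1059 CPM in controls and 194 and 1048 CPM in injured discs, with the groups almost touching. Hes1, a Notch target, was at 1598 and 674 CPM in controls and 159 and 500.4 CPM in injured discs. Gadd45g and Gadd45b, stress-induced growth arrest genes, were at 2674 and 1252 CPM in controls and 459 and 429 CPM in injured discs and at 590.4 and 770.4 CPM in controls and 106 and 238 CPM in injured discs, and Fmo2, a flavin monooxygenase, at 1111 and 963 CPM in controls and 176 and 262 CPM in injured discs. Timp3, a metalloproteinase inhibitor, was at 1319.8 and 1444 CPM in controls and 253 and 548 CPM in injured discs, while in the rest it was at 844 and 904 CPM in controls and 2725 and 1411 CPM in injured discs. Timp3 was not among the 4 genes called in the test of endothelial cells against the rest below. Leaving out 1 library moved several pooled ratios of injured to control by over 1.5 times, all still under 1. Without the first control library that of Gadd45g was 0.362 in place of 0.197, that of Id3 0.343 in place of 0.198 and that of Hes1 0.336 in place of 0.167. Without the first injured library those of Id1, Id3, Hes1, Smad7, Gadd45b and Timp3 were 0.267, 0.571, 0.370, 0.156, 0.373 and 0.405.

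**Figure D4:**
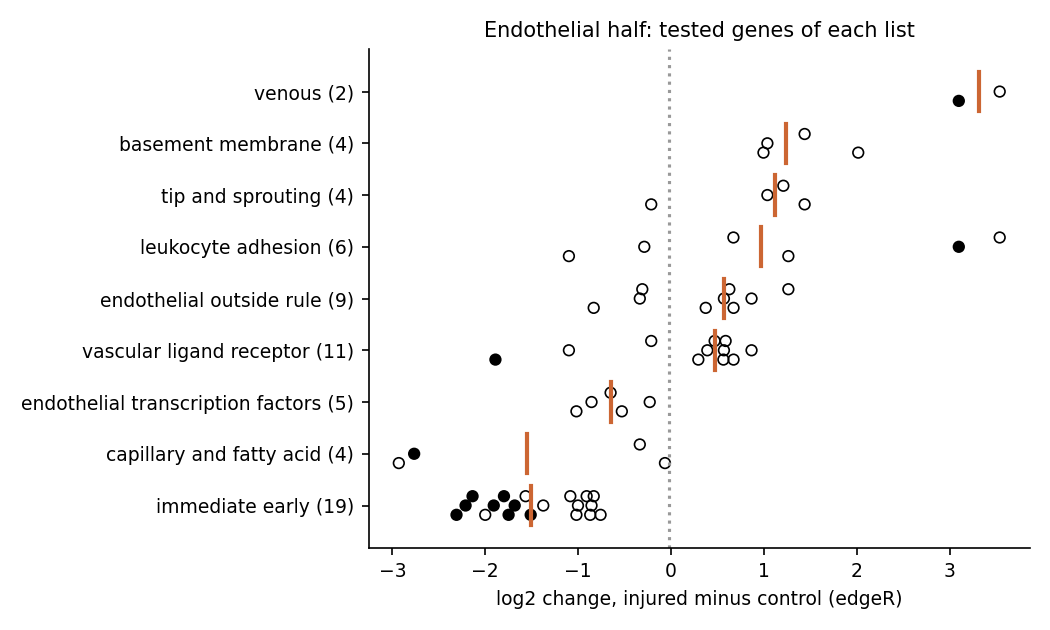
Log2 differences (injured minus control) of the tested genes of 9 lists in endothelial cells, from the fit without round as a term, with filled points for genes called when round was a term, an orange bar at each list's median and a dotted line at the median of all 553 genes. All 19 genes of the early response list and all 4 capillary genes lie below 0, and the 4 basement membrane genes lie above it.

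Endothelial transcription factors overlapped between groups where they could be tested. Erg, which maintains endothelial identity, was at 243 and 482 CPM in controls and 265 and 214 CPM in injured discs, and Sox17, Sox18 and Sox7 were each seen in all 4 libraries with the groups overlapping. Klf2, the flow-induced factor, was at 139 and 867 CPM in controls and 135 and 309.8 CPM in injured discs. Of 18 factors 5 were tested. All 5 were below 0, with a median log2 difference of -0.65 beside -0.02 over all genes. Of the factors not tested, Lmo2 (1 control and 40 injured UMIs) and Nr2f2 (2 and 22) were higher without overlap. Bcl6b (8 and 21) was lower without overlap. Of 16 genes of mesenchymal transition 2 were tested and neither was called. S100a4, a calcium-binding protein, was at 868 and 385 CPM in controls and 1035 and 2145 CPM in injured discs, higher without overlap, and Vim, the intermediate filament vimentin, at 6113 and 2311 CPM in controls and 7758 and 5909.5 CPM in injured discs, overlapping. Of those not tested, Acta2 had no endothelial UMI in any library, Fn1 was at 0 CPM in both controls and 129 and 334 CPM in injured discs, and Tagln at 208 and 867 CPM in controls and 70.6 and 23.8 CPM in injured discs.

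To ask whether an injury difference was particular to endothelial cells, the difference was tested against that of the cells of neither kind in 1 fit with library as a term. Of 8061 genes 4 were called (0.0496%), 3 higher in endothelial cells (0.0372%) and 1 lower (0.0124%), with 320 under an unadjusted p of 0.05. The median over all genes was 0.88 on the log2 scale, so each value stands against that level; with RLE in place of TMM scaling it was 0.48 and 6 genes were called, 3 higher and 3 lower. Without the second control library 2 were called, without the first injured library 1, and without the second injured library none.

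Cd36 was lower in injured endothelial cells but higher in the injured rest, where it was at 1.94 and 3.28 CPM in controls and 28.4 and 15.1 CPM in injured discs, a difference of differences of -5.29 ± 1.07 on the log2 scale (SE, edgeR interaction, adjusted p = 0.00302). In the rest these levels lay below those of barcodes under 100 UMIs (53.4 and 34.1 CPM in the injured libraries and 40.5 CPM in the second control), and the first control matrix lists no such barcode, so Cd36 in the rest is not read as expression and the part of free RNA in this call was not tested. With 1 library left out, the difference of differences of Cd36 was -6.14 to -4.15. Sox4 was higher in injured endothelial cells and at 87.2 and 72.7 CPM in controls and 40.5 and 40.5 CPM in injured discs in the rest (4.30 ± 0.98, adjusted p = 0.0239). Pcp4l1 was at 243 and 482 CPM in controls and 224 and 214 CPM in injured discs in endothelial cells, with both controls above both injured libraries. In the rest it was at 22.3 and 21.6 CPM in controls and 0.79 and 1.55 CPM in injured discs (4.17 ± 0.91, edgeR interaction, adjusted p = 0.0136). Igfbp5, an IGF-binding protein, had no endothelial UMI in controls and 8 and 29 in injured discs, in 5 cells that all held Ackr1 (edgeR interaction, adjusted p = 0.00302). Against a floor of 3 UMIs it was at least 2.28-fold higher in injured endothelial cells, a bound of 0.604 without the first control library, 0.615 without the second injured one and 9.02 without the first injured one, and in the rest it was at 169 and 310.2 CPM in controls and 40.8 and 64.2 CPM in injured discs.

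The mural cells with Rgs5 numbered 2 in each control library and 15 and 14 in the injured libraries. No injury test was made, because a minimum of 5 cells a library had been set for a fit, and the control values below rest on cells of 2981 and 620 UMIs in round 1 and of 491 and 19188 UMIs in round 2. A single UMI is worth 278 and 50.8 CPM in these control sums and 10.4 and 21.6 CPM in the injured ones. Control values near those levels thus rest on 1 or a few UMIs. In round 1, 1 of the control cells carries a barcode shared with the injured library, and in round 2, 1 was among the cells with the highest doublet scores. Rgs5 itself was at 7498 and 1880.2 CPM in the control libraries and 5924 and 9503 CPM in the injured libraries, with a median of 22 UMIs a cell, against 0.79 to 2.82 CPM in the rest. A further 16 cells with an Rgs5 UMI had too few markers for the rule (median 1028 UMIs).

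These cells carried both pericyte and contractile genes. Pdgfrb, the receptor of PDGF-B, was at 555 and 711 CPM in the control libraries and 612 and 1404 CPM in the injured libraries, and at 19.0 to 45.4 CPM in the rest. Des, an intermediate filament protein, was at 278 and 254 CPM in controls and 643 and 367 CPM in injured discs, and Thy1, a surface glycoprotein, was in 20 cells. Of the rule genes, whose detection follows from how the cells were chosen, Notch3, the mural Notch receptor, was in 29 of 33 cells, at 278 and 152 CPM in controls and 726 and 1447 CPM in injured discs, and Abcc9 and Kcnj8, the subunits of the pericyte potassium channel, were in 17 and 12.

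Acta2 was in 25 cells, at 2222 and 2338 CPM in the control libraries and 1567 and 1253 CPM in the injured libraries. Tagln, the actin-bundling transgelin, was in 21, at 1666 and 559 CPM in controls and 1536 and 1231 CPM in injured discs, and Myl9, the regulatory light chain of smooth muscle myosin, in 24. Myh11, the smooth muscle heavy chain and a rule gene, was in 20. Cells did not sort into those with Acta2 and those with Pdgfrb, since 17 of 33 held both, 8 Acta2 alone, 5 Pdgfrb alone and 3 neither. The late smooth muscle genes Cnn1 and Pln were nearly silent: Cnn1 was at 10.4 CPM in the first injured library and 0 elsewhere, and Pln was at 0 throughout. The contractile list of 20 genes summed to 22494 and 10316 CPM in controls and 10801 and 7602 CPM in injured discs, against 602 to 1109.6 CPM in the rest, and the pericyte list of 19 to 6665 and 3456 CPM in controls and 3839 and 5119 CPM in injured discs.

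Several matrix genes were at higher levels in mural than in endothelial cells, which is a description and was not tested. In injured discs Col4a1 was at 2853 and 2743 CPM in mural and at 1071 and 1334 CPM in endothelial cells, and Col18a1, which yields endostatin, at 1131 and 2699.7 CPM and at 229 and 1334 CPM. Both were low in the rest, at 32.5 to 101 CPM and 2.69 to 18.5 CPM. Mgp, the matrix Gla protein that limits vascular calcification, was at 2777 and 18548 CPM in controls and 4544 and 4492 CPM in injured discs in mural cells, and Col3a1 at 555 and 2947 CPM in controls and 3050.4 and 4924 CPM in injured discs. In the second control sum 1 cell held 19188 of the 19679 UMIs. Endothelial cells had 7 control and 38 injured UMIs of Mgp and 0 and 1 of Col3a1. The part of free RNA in these 2 genes was not tested. Procr, the endothelial protein C receptor, was highest in the first control library, at 14996 and 50.8 CPM in controls and 2065 and 194 CPM in injured discs, and came there from 1 cell. Fabp4 was at 1338 and 1058 CPM in injured mural cells, and in barcodes under 100 UMIs, which hold free RNA, at 444 and 306 CPM in those libraries.

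For PDGF-B, and for endothelin with its receptor Ednra, the ligand was seen in endothelial cells and the receptor in mural cells. Pdgfb was at 243 and 193 CPM in controls and 647 and 214 CPM in injured discs in endothelial cells and had no UMI in mural cells, and Pdgfrb had none in endothelial cells. Ednra, the endothelin receptor of contractile cells, was at 176 and 346 CPM in injured mural cells and had no endothelial UMI, while its ligand Edn1 was at 34.7 and 0 CPM in controls and 41.2 and 119 CPM in injured discs in endothelial cells. Ednrb, the other endothelin receptor, had 0 control and 23 injured UMIs in endothelial cells, so it did not follow that split. Dll4, the endothelial Notch ligand, was at 69.5 and 193 CPM in controls and 70.6 and 119 CPM in injured discs and Notch1 at 208 and 289 CPM in controls and 382 and 262 CPM in injured discs. Heyl, a target of Notch3, was at 278 and 356 CPM in controls and 62.3 and 64.8 CPM in injured discs in mural cells and at 0 in endothelial cells. A single UMI is worth 278 and 50.8 CPM in the control mural sums, so its first control value is 1 UMI.

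Vegfa, whose receptors Kdr and Flt1 are rule genes of the endothelial cells, had 4 UMIs in those cells, 3 of them in the first control library. It was at 104 and 0 CPM in controls and 0 and 23.8 CPM in injured discs there, at 145 and 129.6 CPM in injured mural cells and at 93.4 to 167 CPM in the rest. Tie1, an orphan receptor that modulates TIE2, was at 139 and 289 CPM in controls and 206 and 524 CPM in injured discs and Tek, the angiopoietin receptor TIE2, at 104 and 0 CPM in controls and 153 and 143 CPM in injured discs. Angpt1, its mural ligand, had 1 UMI in the 33 mural cells. S1pr1, the sphingosine phosphate receptor of endothelium, was at 382 and 289 CPM in controls and 600 and 214 CPM in injured discs, and S1pr3 was at 208 and 21.6 CPM in injured mural cells with no endothelial UMI. The list of 58 ligand and receptor genes also holds the Notch targets Hes1, Hey1, Hey2 and Heyl. Of its genes 11 were tested for injury in endothelial cells, 8 of them above 0. Their median log2 difference was 0.47 beside -0.02 over all genes. The 1 that fell in the blocked fit, where 3.98% of all tested genes did, was Hes1, which is neither ligand nor receptor.

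**Figure D5:**
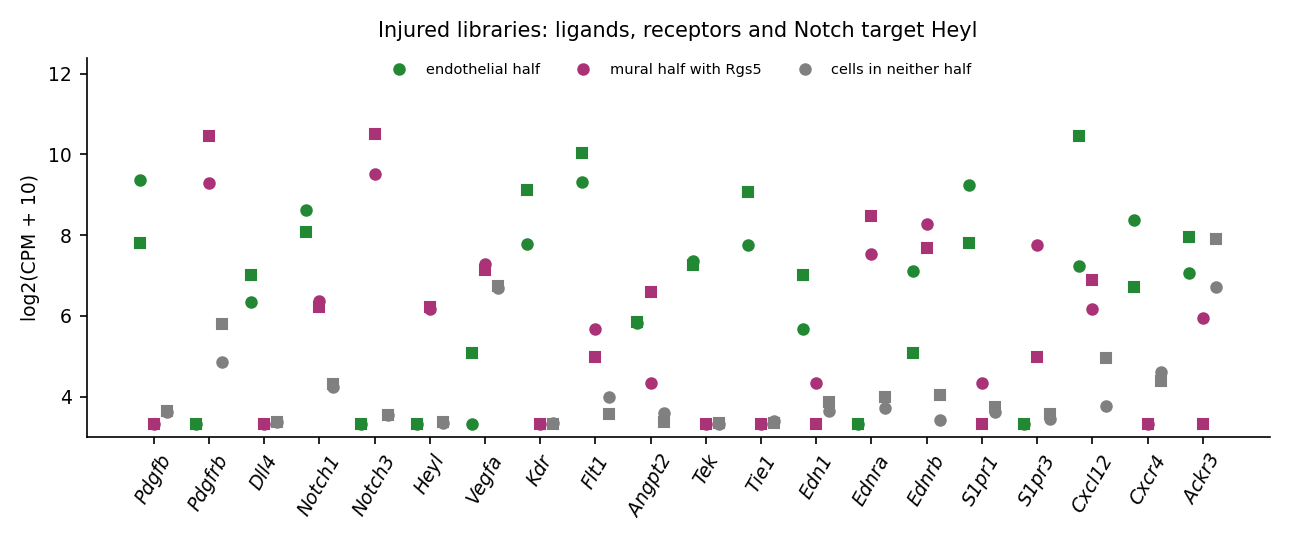
Levels of 20 genes (ligands, receptors and the Notch target Heyl) in the injured libraries as log2 of CPM plus 10, in endothelial cells (green), mural cells with Rgs5 (purple) and the cells of neither kind (grey), circles for round 1 and squares for round 2. Points at the bottom had no UMI: Pdgfb is absent from the mural points and Pdgfrb and Ednra from the endothelial points.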

How the data were processed

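The values are UMI counts per gene and barcode from 4 droplet libraries, deposited as matrices that the authors made with Cell Ranger on mm10 (version 6.0.0 for the first control library and 4 for the others, per the file headers); the cutoff of 250 detected genes is theirs, per the series' design text. Barcodes shared between libraries were counted in round 1 only. The members and gene lists were chosen with earlier results of these data known. UMIs were summed over the cells of a kind in each library, the 1 cell meeting both sets left out, and tested with edgeR 4.0.16 (quasi-likelihood, TMM, default low-count filter, Benjamini-Hochberg over all genes, threshold 0.05) in R 4.3.3, with DESeq2 1.42.0 as an alternative; the scripts were tested on simulated data. The 18 rule genes stayed in the library sizes. Libraries with under 5 cells of a kind were left out of a fit. Doublets were kept, and removing the 39 highest Scrublet scores (scanpy 1.11.5) was an alternative. Control and injured discs came from the same animals, per the labels, which do not say whether the rounds shared them; round was taken as the pairing, and deviations within a round correlated at r = 0.499 over 553 endothelial genes. Named genes are the rule genes, up to 10 called genes a direction (or the 5 of lowest p), interaction calls, the 15 highest ratios to the rest, the 4 highest and any called member of each list, and all ligands and receptors; any other gene was chosen after its values were seen. Gene names were taken from the files and gene positions from the GENCODE annotation of GRCm38, with promoter windows from RefSeq (GRCm38.p6).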

Additional observations from a re-analysis of the deposited data

Results flagged for a closer look

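In 4 genes the injury difference of endothelial cells departed from that of the cells of neither kind, by the interaction term of the edgeR fit over 8061 genes. Igfbp5 (adjusted p = 0.00302) was at 0 CPM in both controls and 47.1 and 691 CPM in injured discs in endothelial cells and at 169 and 310.2 CPM in controls and 40.8 and 64.2 CPM in injured discs in the rest, and 2 of its 8 alternatives did not call it. Cd36 (adjusted p = 0.00302) was lower in injured endothelial cells and higher in the injured rest, where it lay below its level in barcodes under 100 UMIs (53.4 and 34.1 CPM), which hold free RNA, and 3 of 8 alternatives did not call it. Pcp4l1 (adjusted p = 0.0136) was at 22.3 and 21.6 CPM in controls and 0.79 and 1.55 CPM in injured discs in the rest, and 5 of 8 alternatives lost it. Sox4 (adjusted p = 0.0239) was lost in 4 of 8. None of the 4 changed sign in any of those alternatives.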

How the results depend on the processing

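The endothelial share difference kept its direction in 13 of 14 alternatives and reversed without injured replicate 1 (-0.591 points); leaving out 1 library gave -0.591 to 2.83 points. It was 0.592 points thinned to 1000 UMIs and 0.353 without shared barcodes, and a higher minimum of UMIs a cell turned its round 2 part to -0.0877. The mural share difference stayed positive in all 16 (0.744 to 10.3 points; 1.25 to 2.70 with 1 library left out). It was 10.3 points with 2 markers, 0.863 with 4, 0.822 thinned to 1000 UMIs and 0.992 with Rgs5 required, the last chosen after seeing the data. Pairing by round gave p = 0.5 for both shares, the exact sign-flip test.

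The count of endothelial genes called was 0, and 24 with round as a replicate block. It was 11 with at least 500 detected genes and 15 under 10% mitochondrial UMIs; both left the second control library under 5 cells and out of the fit. With 1 library left out it was 0 to 12 (12 without the second control library, 5 without the second injured one). Those sets shared 5, 8, 5 and 1 genes with the 24. The other alternatives called 0. The interaction count of 4 became 7 with no filter and 7 with at least 4 markers, and 0 to 3 with 1 library left out. Of the 24 genes called with round as a block, 23 kept their direction in every alternative that tested them, and Hspa1a turned without control replicate 1 (-3.15 to 0.96 on the log2 scale with 1 library left out). Of all 95 named genes tested, 60 kept it and 35 turned in at least 1 alternative. The 4 interaction genes kept theirs.

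The mural injury test, the interaction of mural cells with the rest and that of endothelial with mural cells were not run, nor were their alternatives, because a minimum of 5 cells a library was set and the control libraries held 2 mural cells each. Control sums of 28793 and 10384 endothelial UMIs limit every endothelial comparison, since 3 UMIs there are 104 and 289 CPM.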

Other observations

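Interferon-stimulated genes were high in vessel cells of every library. The list of 27 genes summed to 3751 and 2793 CPM in controls and 3035 and 3598 CPM in injured discs in endothelial cells, to 1666 and 1778 CPM in controls and 2252 and 3607 CPM in injured discs in mural cells with Rgs5, and to 228 to 608 CPM in the rest. Ifitm3, a membrane protein that restricts virus entry, made up most of it, at 2258 and 2311 CPM in the control libraries and 2435 and 2502 CPM in the injured libraries in endothelial cells. Bst2, the virus-tethering protein tetherin, was at 96.3 to 167 CPM there and at 5.37 to 15.5 CPM in the rest. Ifitm3 was the only one of the 27 with enough counts for the endothelial injury test and was not called, and mural cells were not tested.

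Posterior Hox genes, which mark tail position in mesenchyme, were sparse in endothelial cells. The 16 genes gave 8 UMIs in the 61 cells, from 3 genes, at 23.5 to 96.3 CPM a library. Mural cells with Rgs5 had 322 and 238 CPM in injured discs and the rest 202 to 292 CPM.

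Csf3, the granulocyte growth factor G-CSF, had 183 endothelial UMIs, all in the first injured library and in 10 cells, of which 8 held Selp and 7 Ackr1. Cxcl12, the ligand of CXCR4, followed round rather than group in endothelial cells, at 243 and 3178 CPM in controls and 141 and 1406 CPM in injured discs.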
